A study of Mus musculus with 144 samples.

Results

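The genes described here encode the protein side of the splicing machinery in mouse liver: the Sm, U1 and U2 proteins (symbols starting Snrp), the SF3a and SF3b complexes (Sf3a, Sf3b), the PRP splicing factors (Prpf) and the heterogeneous nuclear ribonucleoproteins (Hnrnp). They were taken from the deposited gene table by these first letters alone, leaving out rows marked as pseudogenes with -ps. The rule found 55 of 51912 genes, and 54 of them passed the filter on low counts in the comparisons of levels. The remaining one, Snrpert, had a mean of 0.83 CPM (the usual scaling of a count to its library total) in wild-type total RNA and is named only.

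The study collected livers of male C57BL/6J mice under a light and dark cycle of 12 h each, fed without restriction, at zeitgeber time (ZT, hours after lights on) 2, 6, 10, 14, 18 and 22. Wild-type livers gave 3 kinds of RNA: total RNA, nuclear RNA collected through a sucrose cushion, and polysomal RNA from sucrose gradients with cycloheximide, that is, RNA of fractions in which several ribosomes ride on one message. Livers of Bmal1-/- mice, which lack a working copy of the clock activator BMAL1, gave total RNA only. Each of these 4 series held 6 libraries at each of 6 time points, 36 per series and 144 in all, made with a kit that reads 3′ ends next to the poly(A) tail. All mice shared sex, strain, lighting and feeding. The sources used here give no age, do not say which part of Bmal1 is altered, and do not say which libraries came from the same animal, so a p-value below measures the spread between libraries.

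Pre-mRNA splicing is carried out by small nuclear ribonucleoproteins (snRNPs), in which a ring of Sm proteins holds a short nuclear RNA. U1 recognises the 5′ splice site, U2 with SF3a and SF3b recognises the branch point, and the U4, U5 and U6 particles with the PRP factors complete and run the catalytic core. The hnRNPs coat nascent transcripts and steer splice site and poly(A) site choice, stability and export, and several of them shuttle to the cytoplasm. Many of these genes are known to regulate their own messages through alternative splicing or retained introns, and messages with retained introns are often held in the nucleus.

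Library totals were 5316601 to 9831142 counts in wild-type total RNA, 1662449 to 6620128 in nuclear, 2578048 to 13068044 in polysomal and 4379549 to 14281894 in Bmal1-/- RNA, and the 55 genes took a median of 0.209%, 0.184%, 0.2% and 0.235% of the counts. The summed level of the nuclear transcripts Neat1, Malat1 and Xist had a median of 1992 CPM in total, 2727 in nuclear and 58.7 in polysomal RNA. The 6 hepatocyte markers had a median sum of 70760 CPM in wild-type and 56980 in Bmal1-/- total RNA, so the labelled tissue was present in both. Arntl, the gene that encodes BMAL1, was detected at 0.263 to 20.4 CPM in wild-type and 4.94 to 16.7 CPM in Bmal1-/- total RNA, so its 3′ tag does not check the genotype. In each series 1 library labelled ZT22 held over 100 CPM of Xist although the mice are labelled male, and wild-type total replicate 4 at ZT2 correlated poorly with its group. Those 5 libraries stay in the values below. Named rhythms that changed without 1 of them are given with both values, and counts without all 5 are given in the closing section on processing.

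Levels are CPM scaled by the trimmed mean of M values (TMM). A 3′ tag is counted about once per message whatever its length, so no correction for length was made. Reads that start at internal runs of A, and reads lost between near-identical copies, can still shift the level of one gene against another. In bulk tissue, fewer cells of a type and less RNA per cell cannot be told apart. In wild-type total RNA the hnRNPs spanned the widest range, from Hnrnph2, a G-tract binder, at 2.99 ± 1.12 CPM (mean ± SD, n = 36) to Hnrnpu, the scaffold attachment factor, at 155 ± 13.9. Among the Sm genes, Snrpd3 was the highest at 59.7 ± 12 and Snrpf the lowest at 3.41 ± 4.57, and Snrpf ran from 0.145 to 19.4 CPM between libraries. Snrpb2 of U2 stood at 54.8 and Snrpa of U1 at 5 CPM. Sf3b2 reached 144 and Sf3a2 3.91 CPM, and Prpf38a was the lowest PRP factor at 4.43. The counted levels of subunits of 1 complex thus differed widely.

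Nuclear RNA differed from total RNA in most of the genes. With edgeR's quasi-likelihood test and Benjamini-Hochberg adjustment over all genes, 47 of 54 members were called (87%), against 83.8% of all 11864 genes tested. Of these, 18 were higher in nuclear RNA (41.6% of all genes were) and 29 were lower (42.1% of all genes). The members' median difference was −0.2 on the log2 scale and that of all genes −0.01. By role, the Sm ring leaned lower, with 2 of 8 higher, 5 lower and a median of −1.13. The hnRNPs had 4 of 20 higher, 14 lower and a median of −0.44, while the PRP factors had 7 of 13 higher, 4 lower and a median of 0.40. SF3a and SF3b were split, 4 of 9 in each direction. These counts by role are from the gene table. The lean of the hnRNPs was weaker by a second count given below, which was also scaled anew. The 5 stellate cell markers summed to 217 to 378 CPM in total and 95.1 to 231 in nuclear RNA, and the 4 erythroid markers to medians of 1379 and 571.5 CPM. The part of these shifts in the members' nuclear differences was not tested.

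Snrpd1 (chr18:10617796-10628230), a subunit of the Sm ring, had 15.3 to 40.7 CPM (median 28.7) in total and 1.9 to 13 CPM (median 5.59) in nuclear RNA. All 36 nuclear libraries lay below all 36 total libraries. The log2 difference was −2.25 ± 0.10 (SE), with an adjusted p of 7.6e-33. Snrpb2 (chr2:143063069-143072052), the U2 protein, fell from a range of 42.9 to 65.4 (median 55.5) to 4.68 to 27.5 (median 13.6), again with no overlap, by 2.05 on the log2 scale (SE 0.09, adjusted p = 1.3e-33). Snrpe, Sf3b6, Hnrnpa0, Hnrnpc and Hnrnpk also lay lower in nuclear RNA without overlap, and 8 members did so in all (14.8%, against 5.42% of all genes). The members that were lower in every nuclear library thus included subunits of several particles and 3 hnRNPs.

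Snrpa (chr7:27187006-27196271), the U1 protein that also binds its own message, went the other way. It had 2.74 to 7.9 CPM (median 4.99) in total and 6 to 34 (median 15) in nuclear RNA, and 35 of 36 nuclear libraries lay above every total library. The rise was 1.63 ± 0.10 on the log2 scale (adjusted p = 5e-24). Prpf40b (chr15:99295076-99317018), a U1-associated factor, had 2.68 to 10.4 CPM (median 7.08) in total and 8.13 to 34.9 (median 18.2) in nuclear RNA. It rose by 1.33 ± 0.11 (adjusted p = 7.1e-19), and 32 of 36 nuclear libraries lay above every total library. Sf3b3 (chr8:110810491-110846806), a large scaffold subunit of SF3b, had 10.9 to 20.5 CPM (median 15.7) in total and 23.7 to 89 (median 56.3) in nuclear RNA, the single member without overlap in this direction (1.85%, against 3.84% of all genes). Its log2 difference was 1.75 ± 0.08 (adjusted p = 1.5e-31).

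The Sf3b3 rise depended on which counts were used. The authors also deposited counts at a filtered list of cleavage and polyadenylation sites, and summed over the listed sites of Sf3b3 the difference was 0.29 ± 0.08 (adjusted p = 0.0012). The listed sites held 61.8 counts per 100 counts of the gene in total RNA and 18.7 in nuclear RNA, so most nuclear Sf3b3 counts lay outside listed sites. The site sums were scaled anew by TMM. Snrpg, with 96.2 site counts per 100 gene counts in both kinds of RNA, moved from −1.54 to −1.29 by sites. A rise of the size left for Sf3b3 therefore cannot be told from this change of scale. Sf3b3 overlaps Cog4 and Snord111 in the annotation. Hnrnpr, which was higher in nuclei by 0.67 in the gene table, was lower by the listed sites (−1.02 ± 0.10, adjusted p = 5.9e-16). Prpf39, a U1-associated factor, stood at −0.13 (not called) in the gene table and at −1.60 ± 0.14 (adjusted p = 1.6e-17) by sites. Over the 41 called members that could be counted both ways, 35 kept their sign and 33 of those were called again. By listed sites 21 of 48 members were higher and 18 lower in nuclear RNA, in place of 18 and 29 of 54 by the gene table. Over all 8451 genes tested by sites, 3576 were higher and 3481 lower. Hnrnpf, Hnrnph2, Hnrnph3, Sf3a3, Snrpf and Snrpn, all called lower by the gene table, were not tested by sites. The lean of the hnRNPs was weaker by sites. Hnrnpd (−0.05), Hnrnpa3 (0.08) and Hnrnpm (0.13) lost their lower calls, Hnrnpa1 was called higher (0.26) and Hnrnpdl gained a higher call (0.52). For Hnrnpd, Hnrnpm and Hnrnpdl the listed share changed little, so their shifts largely followed the new scaling. Per 100 gene counts it was 69.4 in total and 70.3 in nuclear RNA for Hnrnpd. It was 69.6 and 70.1 for Hnrnpm, and 84.6 and 88.7 for Hnrnpdl. Hnrnpr turned lower, and Hnrnpa2b1, Hnrnpa0, Hnrnpab, Hnrnpc, Hnrnpk, Hnrnpu and Hnrnpul2 kept their lower calls. Of the Sm genes, Snrpd1, Snrpe and Snrpg stayed lower and Snrpd2 and Snrpd3 higher, while Snrpf and Snrpn were not tested by sites. Snrpa (1.54), Prpf40b (1.31), Snrpd1 (−2.04) and Snrpb2 (−1.79) kept their direction and call.

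**Figure D1:**
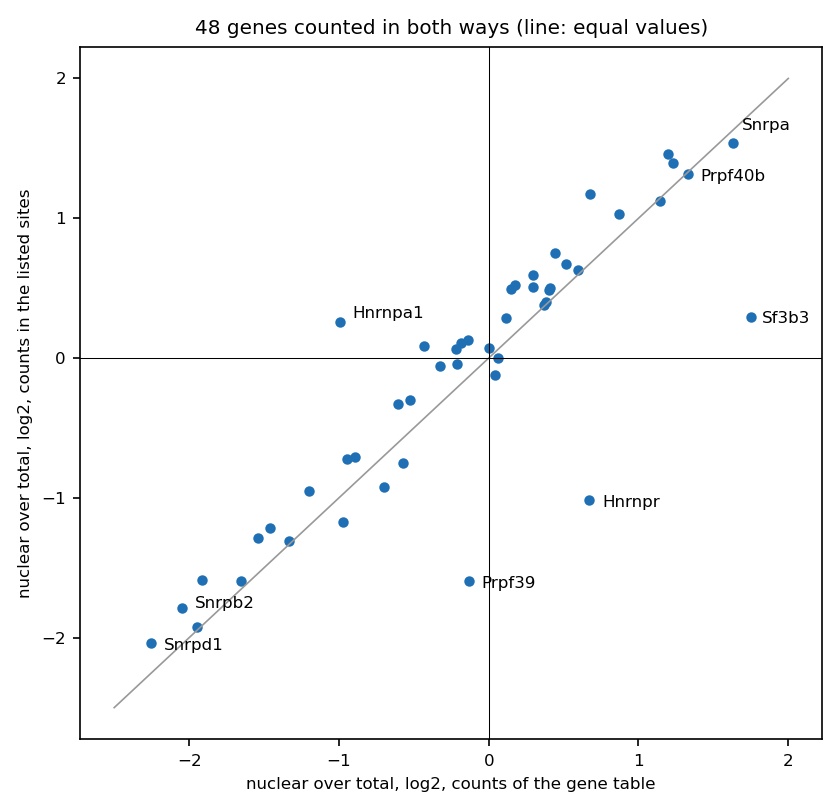
Nuclear over total log2 fold change of each member with both measures, from the gene table (x axis) and from counts in the listed cleavage sites (y axis); each point is a gene and the line marks equal values. Sf3b3, Prpf39, Hnrnpr and Hnrnpa1 lie far from the line, while Snrpa, Prpf40b, Snrpd1 and Snrpb2 lie near it.

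Polysomal RNA was compared with the same total libraries, so its differences share their controls with those of nuclear RNA. Of 54 members 46 were called (85.2%, against 76.1% of 11556 genes), 18 higher (38.4% of all genes) and 28 lower (37.6%). The PRP factors leaned lower, with 8 of 13 lower, 3 higher and a median of −0.58, against 0.01 for all genes. The Sm genes had 3 of 8 in each direction and the hnRNPs 6 of 20 higher and 11 lower. Without overlap between groups, 4 members were lower (7.41%, against 2.53% of all genes), among them Prpf39, Hnrnpu and Hnrnpdl. Hnrnpul1 was the single member that was higher without overlap (1.85%, against 1.9% of all genes).

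Snrpc (chr17:27840028-27851968), the small zinc finger protein of U1, was the strongest gain. It had 9.89 to 28 CPM (median 16.9) in total and 24.3 to 110 (median 44.4) in polysomal RNA, and 35 of 36 polysomal libraries lay above every total library. The fold change was 3.12, or 1.64 ± 0.12 on the log2 scale (adjusted p = 3.1e-21). Sf3b5, a small SF3b subunit, rose from 16.8 to 52.2 CPM (median 23.4) in total to 30.4 to 110 (median 55.4) in polysomal RNA, by 1.29 ± 0.09 (adjusted p = 2.1e-22). Sf3b4, which contacts the pre-mRNA near the branch point, rose from 6.85 to 20 (median 10.9) to 10 to 46.8 (median 23.1), by 1.14 ± 0.10 (adjusted p = 1.8e-17). Both overlapped with total RNA in part of their libraries.

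On the other side stood Prpf39 (chr12:65036334-65063386), with 12.7 to 28.1 CPM (median 19.9) in total and 0.884 to 10.3 (median 4.76) in polysomal RNA. No polysomal library reached the lowest total library, and the log2 difference was −2.07 ± 0.11 (adjusted p = 6.8e-28). Prpf4b (chr13:34874820-34906064), the splicing kinase, had 29.9 to 121 CPM (median 64) in total and 7.71 to 46.3 (median 16.6) in polysomal RNA, with 34 of 36 polysomal libraries below all total ones (−1.80 ± 0.12, adjusted p = 1.1e-21). The message of Prpf4b was therefore low on polysomes and, at 63 to 227 CPM (median 117), high in nuclei.

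Read side by side by the gene table, 18 members were lower than total RNA in both fractions and 8 were higher in both. Another 7 were higher in nuclei and lower on polysomes: Hnrnph1, Prpf3, Prpf4b, Prpf40b, Sf3b2, Prpf38b and Hnrnpr. The 6 with the opposite order were Hnrnpa0, Hnrnpab, Prpf18, Hnrnpf, Sf3b5 and Snrpe. These counts of crossed calls have no share over all genes beside them, so they do not set the members apart. By listed sites 5 of the 7 and 3 of the 6 had the same directions and both calls, as did 8 of the 8 higher in both and 12 of the 18 lower in both. Among the 7, Hnrnpr was lower in nuclei by sites and at 0.09 on polysomes (adjusted p = 0.36), and Prpf3 was at −0.27 on polysomes (adjusted p = 0.16). Among the 6, Prpf18 was at 0.06 (adjusted p = 0.62) and Sf3b5 at 0.11 (adjusted p = 0.19) in nuclei, and Hnrnpf was not tested by sites in both fractions. The listed shares of Prpf18 (52.2 per 100 gene counts in total and in nuclear RNA) and Sf3b5 (93.7 and 95.5) differed little. Their nuclear values by sites thus largely followed the new scaling. Polysomal RNA also held more erythroid message than total RNA, with the 4 erythroid markers summing to 1081 to 11220 CPM against 317 to 6350. It held less mitochondrial message, with medians of 27080 and 113800 CPM (64980 in nuclear RNA). The 3 lung markers reached a maximum of 955 CPM in polysomal RNA (median 0.475), against 1.21 in total RNA. The 4 pancreas markers reached 1312 CPM in polysomal RNA (median 25.4), against 94.4 in total RNA. The part of these shifts in the members' differences was not tested.

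**Figure D2:**
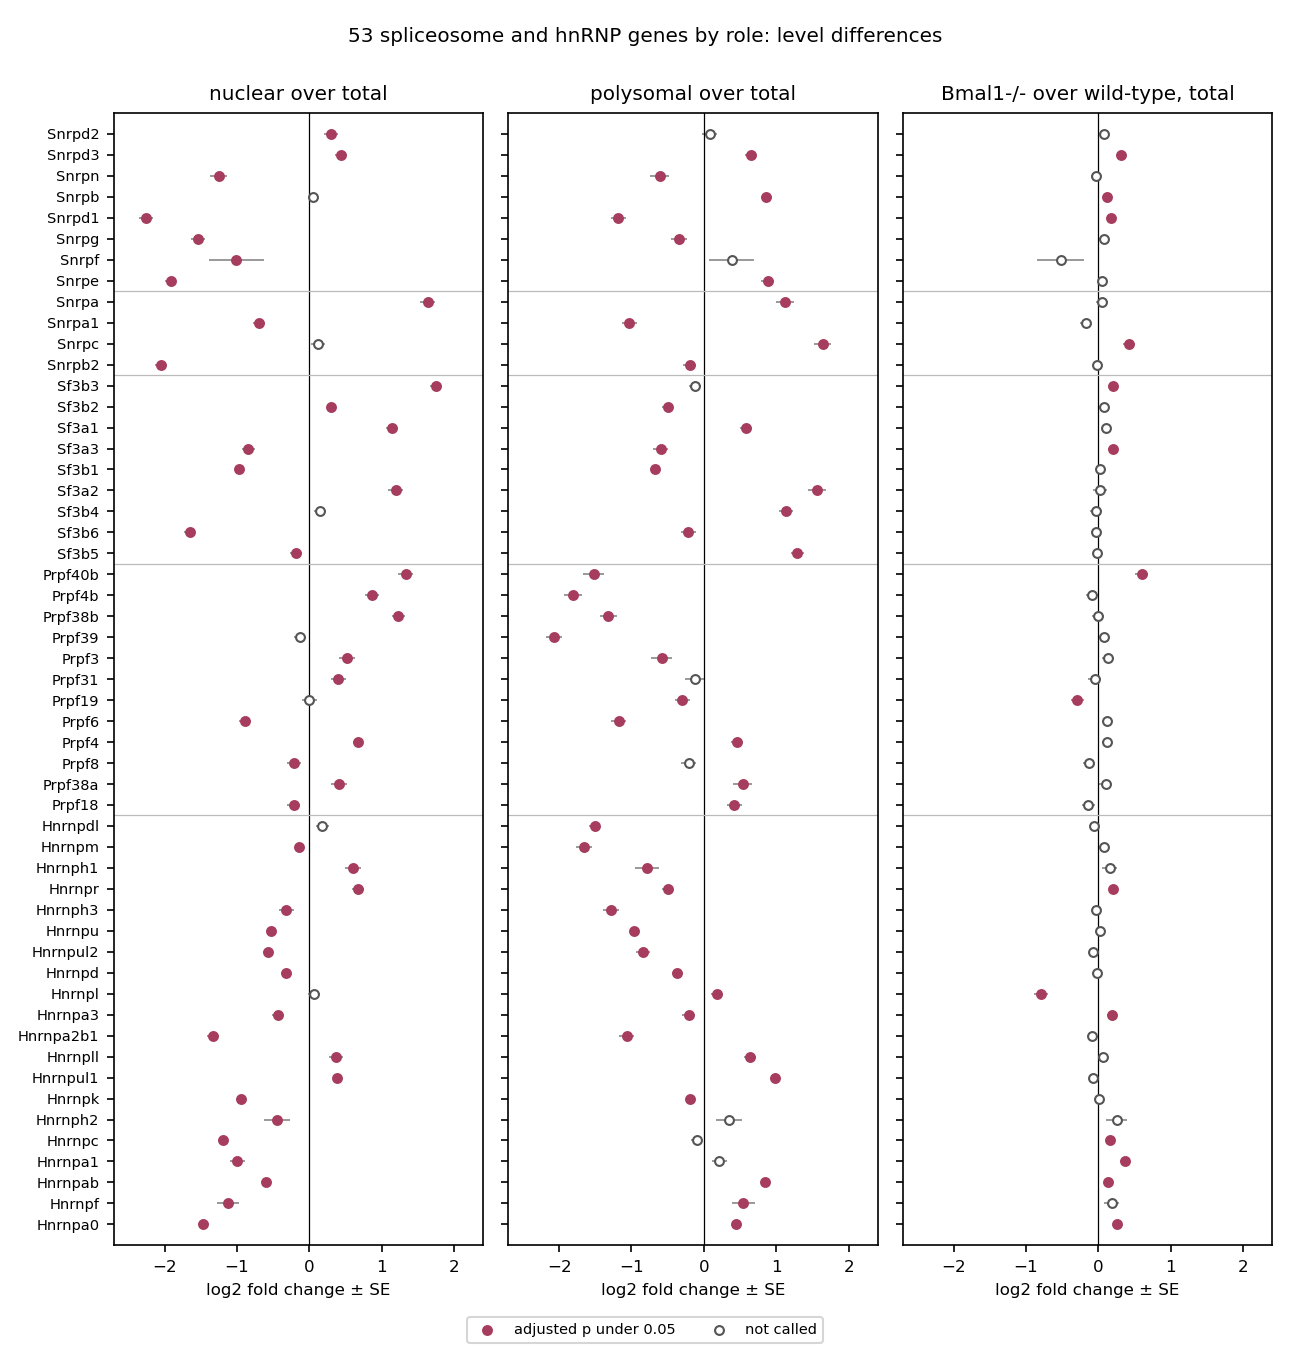
Log2 fold change ± SE (x axis) of 53 of the 54 tested members (y axis, grouped by role: Sm, U1 and U2, SF3a and SF3b, PRP, hnRNP) in nuclear over total, polysomal over total and Bmal1-/- over wild-type total RNA; filled points have an adjusted p under 0.05. The fraction differences reach from −2.25 to 1.75, and those of Bmal1-/- livers from −0.79 to 0.60.

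Polysomal RNA was also set directly against nuclear RNA, with the same libraries of both fractions as above and without total RNA. Here 43 of 54 members were called (79.6%, against 81.9% of 11244 genes), 21 higher on polysomes (39.5% of all genes) and 22 lower (42.5%). The Sm genes had 6 of 8 higher and 1 lower, with a median of 0.84 against −0.04 for all genes. The PRP factors had 1 of 13 higher and 9 lower, with a median of −0.41. The 11 that were at least 2-fold higher (20.4%, against 18.2% of all genes) were balanced by 11 at least 2-fold lower (20.4%, against 24.5%).

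Snrpe (chr1:133603871-133610280), the Sm subunit E, had the largest rise on polysomes over nuclei among the members. It had 5.99 to 22.2 CPM (median 13.9) in nuclear and 35.8 to 218 (median 82.8) in polysomal RNA, with 42 to 75.1 (median 49.2) in total RNA. The nuclear and polysomal libraries did not overlap, and the polysomal level was 6.46-fold higher (log2 2.69 ± 0.11, adjusted p = 2e-34). Hnrnpa0 (chr13:58125879-58128556), an intronless hnRNP that binds AU-rich elements, had 16.3 to 43.3 CPM (median 28.7) in nuclear and 75.3 to 138 (median 106) in polysomal RNA. It too showed no overlap (1.81 ± 0.08, adjusted p = 1.2e-33). Snrpb2 was higher on polysomes by 1.75 ± 0.12 (adjusted p = 1.5e-22), with 22.8 to 103 CPM (median 45), close to its total level and far above its nuclear one in most libraries. Hnrnpab was the third member without overlap in this direction, at 5.56% of members against 4.16% of all genes.

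Prpf40b had 0 to 5.88 CPM (median 2.3) on polysomes against 8.13 to 34.9 in nuclei, which is 0.129 of the nuclear level (−2.96 ± 0.16, adjusted p = 1.5e-28). Prpf4b stood at 0.146 of its nuclear level (−2.78 ± 0.13, adjusted p = 2e-32). Prpf38b (chr3:108902805-108911729), a factor of the precatalytic spliceosome, had 38.9 to 109 CPM (median 74.7) in nuclear and 5.79 to 24.9 (median 12) in polysomal RNA (−2.65 ± 0.12, adjusted p = 6.7e-32). In none of these genes did a polysomal library reach the lowest nuclear one (5.56% of members, against 5.55% of all genes). Prpf39 was lower by 2.04 in the gene table and by 0.57 (SE 0.21, adjusted p = 0.012) by listed sites, so its size rested on nuclear counts outside those sites. The listed sites held 13.2 counts per 100 counts of Prpf39 in nuclear and 47.9 in polysomal RNA. The new scaling by sites also lowered values here, as for Snrpg (1.09 to 0.77, with 96.2 and 94.7 per 100). Whether Prpf39 stayed lower on a common scale was not tested. Hnrnpr was lower by 1.28 in the gene table and higher by 1.06 (adjusted p = 6.2e-13) by sites. Snrpb, Snrpn and Prpf8 illustrate the middle of the list. Snrpb, the main Sm B gene, was higher on polysomes by 0.71, its imprinted paralogue Snrpn by 0.52, and Prpf8, the central U5 scaffold, was at −0.10 (adjusted p = 0.33).

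**Figure D3:**
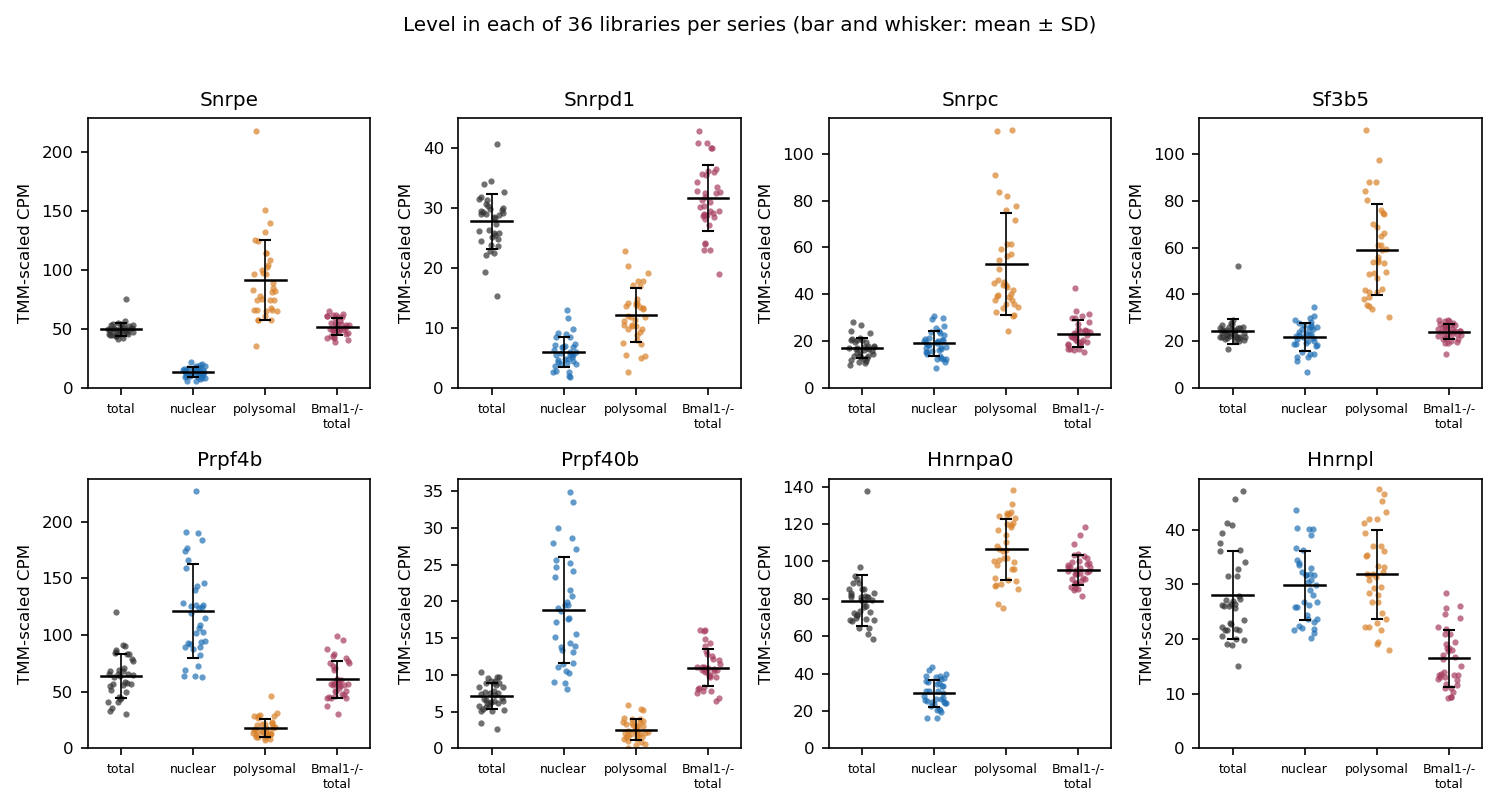
TMM-scaled CPM (y axis) of 8 members in each of the 36 libraries of the 4 series (x axis), with the mean and SD. Snrpe and Hnrnpa0 are low in nuclear and high in polysomal RNA, Prpf4b and Prpf40b the reverse, Snrpc is highest on polysomes, Snrpd1 is highest in total RNA, and Hnrnpl is lowest in Bmal1-/- livers.

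The other genes of the machinery, from lists of factors with other symbols, were also mixed. Of 47 other spliceosome genes tested, such as the U5 and LSm proteins, 18 were higher and 22 lower in nuclear than in total RNA. On polysomes 17 of 48 were higher and 24 lower than in total RNA. Of 17 other hnRNP-like genes, such as Ptbp1, Pcbp1 and Elavl1, 5 were higher and 8 lower in nuclear RNA, and 7 higher and 10 lower in polysomal RNA. Over all genes 41.6% were higher and 42.1% lower in nuclear RNA, and 38.4% and 37.6% in polysomal RNA.

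Loss of Bmal1 moved these genes little. In total RNA 15 of 54 members differed between Bmal1-/- and wild-type livers (27.8%, against 44.2% of 12082 genes), 13 higher (21.7% of all genes) and 2 lower (22.4%). No member had groups without overlap (0.0166% of all genes in each direction), and none changed by 2-fold, against 1.96% of all genes at least 2-fold higher and 2.37% at least 2-fold lower. Calls in the higher direction came from 6 hnRNPs, 3 Sm genes, 2 SF3 genes, Snrpc and Prpf40b. The median over the members was 0.06 and over all genes 0.00 on the log2 scale. Of 49 other spliceosome genes, 13 were higher and 5 lower.

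Prpf40b changed most among the genes that rose. It had 2.68 to 10.4 CPM (median 7.08) in wild-type and 6.41 to 16.2 (median 10.8) in Bmal1-/- total RNA, and 22 of 36 Bmal1-/- libraries lay above every wild-type library. The fold change was 1.52 (log2 0.60 ± 0.09, adjusted p = 2.6e-08), higher at 6 of 6 time points. Snrpc rose from 9.89 to 28 CPM (median 16.9) to 15.4 to 42.6 (median 22.6), by 0.42 ± 0.08 (adjusted p = 1.4e-05), with 7 libraries above all of wild type. Hnrnpa1, a shuttling splicing repressor, had 7.45 to 15.5 CPM (median 11) in wild-type and 8.82 to 21.9 (median 14.5) in Bmal1-/- RNA. It was higher by 0.37 ± 0.07 (adjusted p = 4.9e-06), but within replicates 1 to 3 alone the difference was 0.20 and not called. The other genes that rose did so by less: Snrpd3 by 0.31, Hnrnpa0 by 0.26, Hnrnpr and Sf3b3 by 0.21, Sf3a3 by 0.20 and Hnrnpa3 by 0.19. Snrpd1, Hnrnpc, Hnrnpab and Snrpb rose by 0.18, 0.16, 0.13 and 0.12. Of the 14 called members, higher or lower, that could be counted both ways, all kept their sign by listed sites and 13 were called again. Hnrnpa3 was not (0.07 ± 0.08, adjusted p = 0.50 by the same edgeR test).

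Hnrnpl (chr7:28808546-28822268), which binds CA repeats, fell the most. It had 15.1 to 47 CPM (median 26.3) in wild-type and 9.24 to 28.3 (median 15.7) in Bmal1-/- total RNA, and 17 Bmal1-/- libraries lay below every wild-type one. The level was 0.579 of wild type (log2 −0.79 ± 0.10, adjusted p = 3.6e-10), lower at every one of the 6 time points. The size differed between replicate numbers: means were 23.9 and 19.3 CPM in replicates 1 to 3 (log2 −0.35) and 32.3 and 13.7 in replicates 4 to 6 (log2 −1.24). Prpf19, the ubiquitin ligase that activates the spliceosome, had 5.78 to 39.9 CPM (median 24.1) in wild-type and 8.41 to 28.3 (median 20.5) in Bmal1-/- RNA, with full overlap. It was lower by 0.29 (SE 0.09, adjusted p = 0.006), and within replicates 4 to 6 by 0.20 and not called. The 5 cholangiocyte markers summed to 16.2 to 66.6 CPM in wild-type and 45.8 to 136 in Bmal1-/- livers, and the 5 stellate cell markers to 217 to 378 and 310.1 to 513 CPM. The 4 pancreas markers, of which 3 had a median of 0 over all 144 libraries, summed to 15 to 94.4 and 15.5 to 185 CPM. The part of those shifts in the members' differences was not tested.

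Several members of known function stayed without a call in Bmal1-/- livers. Hnrnpu was at 0.03 ± 0.03, Hnrnpk at 0.02 ± 0.03, Sf3b1 at 0.03 ± 0.03 and Snrpb2 at −0.02 ± 0.03 on the log2 scale, which are narrow intervals. Hnrnpa2b1 was at −0.08 ± 0.07, Hnrnpd at −0.02 ± 0.06, Hnrnpdl at −0.05 ± 0.05, Hnrnph1 at 0.16 ± 0.11 and Snrpn at −0.03 ± 0.08. Among the spliceosome factors, Prpf8 was at −0.13 ± 0.08, Prpf31 at −0.05 ± 0.09, Prpf4b at −0.08 ± 0.09, Sf3a1 at 0.10 ± 0.06 and Snrpa at 0.05 ± 0.08.

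Daily rhythms were tested with a 24 h cosine in each series. In wild-type total RNA 6 of 54 members were rhythmic (11.1%, against 18.9% of 11964 genes), and 17 had an unadjusted p under 0.05. The count moved with the setting, from 1 within replicates 1 to 3 and 3 within replicates 4 to 6 to 10 with DESeq2, and 14 was the highest of all settings tried. Snrpa had the largest swing among the members named here, and it peaked in the late dark phase. Its means from ZT2 to ZT22 were 5.31, 4.18, 3.67, 4.65, 6.25 and 5.9 CPM, a fitted peak to trough ratio of 1.69 with the peak at ZT20.8 (adjusted p = 0.00092). Hnrnpc, which binds uridine tracts, followed the same course with 122 CPM at ZT2, a low at ZT10 and 137 at ZT18, a ratio of 1.35 and a peak at ZT20.1 (adjusted p = 0.0037). Snrpd3 peaked at ZT21.3 with a ratio of 1.34 (adjusted p = 0.036). The calls of Snrpa and Hnrnpc held within replicates 4 to 6 and not within replicates 1 to 3, where the log2 peak to trough difference was 0.36 for Snrpa (adjusted p = 0.49, against 1.165 within replicates 4 to 6) and 0.20 for Hnrnpc (adjusted p = 0.41, against 0.66). Snrpd3 was called within replicates 1 to 3 (adjusted p = 0.0085) and not within replicates 4 to 6 (adjusted p = 0.52).

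Other rhythmic members peaked elsewhere. Hnrnpa0 was highest at ZT2 (90.3 CPM) and lowest at ZT14 (70.2), with a ratio of 1.297 and a peak at ZT2.87 (adjusted p = 0.013). Without wild-type replicate 4 at ZT2, which held 138 CPM, its ZT2 mean was 80.8 CPM and ZT6 was the highest time (85.5 CPM), with a ratio of 1.21 and a peak at ZT3.39 (adjusted p = 0.025). Snrpb2 fell from 60.3 CPM at ZT2 to 47.9 at ZT18, with a ratio of 1.18 (adjusted p = 0.048). Without wild-type replicate 4 at ZT2, Snrpb2 was no longer called (adjusted p = 0.072), nor without replicate 5 at ZT22 (0.059). Neither Hnrnpa0 nor Snrpb2 was called within replicates 1 to 3 or within replicates 4 to 6, which hold fewer libraries. Snrpd3 lost its call without replicate 5 at ZT22 (adjusted p = 0.083).

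In Bmal1-/- livers none of 54 members was rhythmic by edgeR or by DESeq2, and 1 fell under 0.05 before adjustment. The share over all genes was 0.00825%, 1 of 12126 genes. The means of Snrpa in Bmal1-/- livers were 5.61, 5.05, 4.6, 6.2, 3.92 and 6.05 CPM, up and down between neighbouring times. A test of the difference in rhythm between genotypes called no member (5.11% of 12082 genes passed), and 9 fell under 0.05 before adjustment. The nearest was Hnrnpa0 (adjusted p = 0.072), whose Bmal1-/- means stayed between 93.3 and 100.4 CPM. Hnrnpc reached 0.12 and Snrpa 0.23, so a difference in rhythm between genotypes was not detected for single members at this spread.

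In polysomal RNA 3 of 55 members were rhythmic (7.9% of 10691 genes were), and all of them peaked in the light phase. Hnrnpl had 32.7, 36.1, 41.2, 28.5, 27.3 and 25.2 CPM from ZT2 to ZT22, a ratio of 1.60 with the peak at ZT7.8 (adjusted p = 0.011). Its total RNA peaked at ZT7.16 with a ratio of 1.36 that was not called (adjusted p = 0.14). Hnrnpk, a poly(C) binder, had a ratio of 1.53 with the peak at ZT7.18 (adjusted p = 0.033). Sf3b1, the branch point subunit of SF3b, had a ratio of 1.61 with the peak at ZT8.6 (adjusted p = 0.04). None of these 3 was called within replicates 1 to 3 (adjusted p = 0.22 for Hnrnpl, 0.49 for Hnrnpk and 0.26 for Sf3b1) or within replicates 4 to 6 (0.27, 0.057 and 0.098). In nuclear RNA edgeR called 0 of 52 members (5.99% of 11172 genes), DESeq2 called 1, and 4 were under 0.05 before adjustment. The tests of nuclear against total and polysomal against total rhythm by edgeR called no gene at all (0% of 11864 and 0% of 11556 genes), and 0 and 4 members had an unadjusted p under 0.05.

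**Figure D4:**
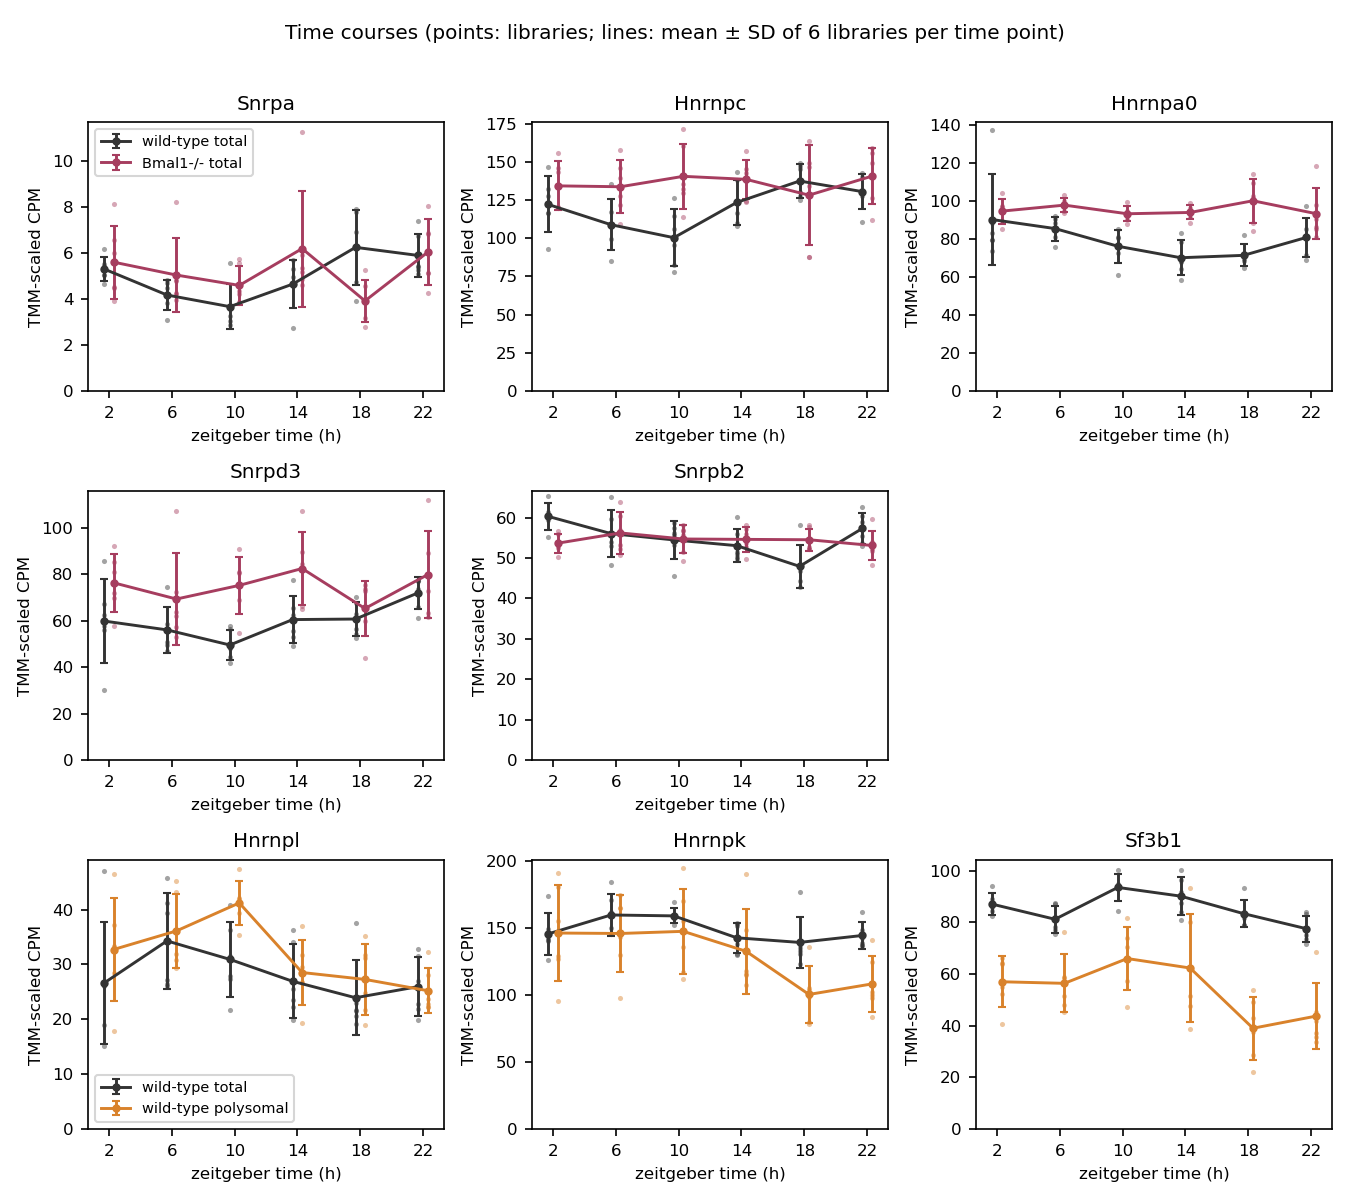
TMM-scaled CPM (y axis) against zeitgeber time (x axis); points are libraries and lines the mean ± SD of 6 libraries. The upper 5 panels show members called rhythmic in wild-type total RNA with Bmal1-/- values, and the lowest row the 3 called in polysomal RNA with total RNA; Snrpa, Hnrnpc and Snrpd3 are lowest at ZT10 in wild type.

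The 3 genes that peaked between ZT20.1 and ZT21.3 in wild-type livers, and the gene that rose the most in Bmal1-/- livers, were set beside the sequence ahead of their annotated starts, since BMAL1 acts through the E-box CACGTG. The sequences are from RefSeq (GRCm38.p6), 5′ to 3′ on the strand of the gene, and end at the base before the annotated start. Capitals mark CACGTG, which reads the same on both strands. They cover chr7:27196272-27196521 (minus strand) for Snrpa, chr14:52104040-52104271 (minus) for Hnrnpc, chr10:75517792-75518041 (plus) for Snrpd3 and chr15:99294991-99295075 (plus) for Prpf40b.
Snrpa: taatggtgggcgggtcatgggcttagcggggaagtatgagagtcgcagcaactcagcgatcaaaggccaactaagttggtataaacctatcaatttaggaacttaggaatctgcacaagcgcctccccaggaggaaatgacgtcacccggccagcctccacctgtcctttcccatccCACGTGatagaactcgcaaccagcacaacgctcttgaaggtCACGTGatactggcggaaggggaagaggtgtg
Hnrnpc: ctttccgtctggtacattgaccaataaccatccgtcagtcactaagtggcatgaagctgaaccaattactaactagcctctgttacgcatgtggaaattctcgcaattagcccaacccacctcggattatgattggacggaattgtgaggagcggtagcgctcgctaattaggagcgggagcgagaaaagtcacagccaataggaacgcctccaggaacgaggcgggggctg
Snrpd3: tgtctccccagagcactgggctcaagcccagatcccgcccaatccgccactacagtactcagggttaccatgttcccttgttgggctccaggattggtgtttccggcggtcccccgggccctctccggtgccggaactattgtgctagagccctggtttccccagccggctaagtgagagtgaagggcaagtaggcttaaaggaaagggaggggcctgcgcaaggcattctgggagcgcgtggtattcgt
Prpf40b: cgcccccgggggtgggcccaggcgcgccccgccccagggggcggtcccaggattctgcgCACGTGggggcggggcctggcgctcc

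Snrpa held 2 copies, starting 73 and 32 bases ahead of its annotated start, Prpf40b held 1, starting 26 bases ahead, and the stretches of Hnrnpc and Snrpd3 held none. Over whole RefSeq windows (250 bases before to 50 after a transcript start), 46 members could be matched and 9 of them held CACGTG in at least 1 window (19.6%, against 8.09% of 27025 genes). By window the shares were 17.5% of 63 and 7.15% of 32851. The others were Hnrnpa3, Hnrnpd, Hnrnpf, Hnrnph2, Hnrnpm, Prpf3 and Prpf39. Of all 9 only Snrpa was called rhythmic and only Prpf40b and Hnrnpa3 were called in Bmal1-/- livers, Hnrnpa3 by the gene table and not by listed sites. The motif CCGGAAG, bound by ETS factors and searched, like TATAAA, on both strands and unable to overlap with CACGTG by its letters, was in 16 of the 46 (34.8%, against 9.93% of genes) and TATAAA in 5 (10.9%, against 15.7%). A match is a description of these letters and shows neither binding nor a cause.

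The listed cleavage sites gave a further view, since 1 gene can end its messages at several places. The authors' filtered list had 225 sites in the members, and 218 sites in 50 members were used. There were 7 members with 1 site and the largest number was 13. Among genes with at least 50 counts per library, the 38 members had a median of 4 sites and all 5750 genes a median of 3. Of the 218 sites, 121 lay over 1000 bases inside the annotated gene end. Positions are given as bases from that end, and 3′ end reads can also start at internal runs of A, which cannot be told apart here.

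Site use, the share of a gene's site counts, differed between fractions in most of the members tested. The called shares were slightly below those of all sites. Between nuclear and total RNA 76 of 102 sites were called (74.5%, against 78.5% of all 11625 sites), in 27 of 28 genes. Of these sites 31 were higher and 45 lower (35.6% and 43% of all sites). In polysomal RNA 82 of 123 sites were called (66.7%, against 70.5% of 12322 sites), in 28 of 32 genes. Here 34 were higher and 48 lower (33.3% and 37.2%). Most of the changes were moderate: 10 of the nuclear and 5 of the polysomal calls reached 20 percentage points. The counts by gene and by 20 points have no share over all features beside them, so they do not set the members apart.

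Hnrnpa1 (chr15:103239943-103246698) had the most complete exchange of sites. Its site 20 bases inside the gene end (chr15:103246636-103246678) took 2.15 to 31.2% (median 14.7%) of the site counts in total RNA and 40 to 100% (median 89.2%) in nuclear RNA. No nuclear library overlapped with a total one (adjusted p = 8.5e-30). In polysomal RNA its share was 15.6 ± 12.4% and in Bmal1-/- RNA 12.9 ± 5.84% (SD, n = 36). The remaining counts fell 1759 bases inside the end (chr15:103244868-103244939), which took 84.7% in total and 11.8% in nuclear RNA. Nuclear libraries held 45.5 site counts of this gene on average, and the listed sites held 196 counts per 100 counts of the gene table there. The gene table and the sites therefore counted different reads, and the nuclear level of Hnrnpa1 was −0.996 ± 0.106 against total RNA by the gene table and 0.26 ± 0.12 (adjusted p = 0.037) by sites. Hnrnpa1 also has near-identical copies elsewhere in the genome, so reads could be lost or misplaced between them.

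Prpf4b and Prpf38b used sites far inside the gene more in nuclei. Prpf4b used the site 22739 bases inside its end (chr13:34883234-34883325) for 31.1 to 51.6% (median 42.7%) of counts in total and 53.9 to 82.5% (median 73%) in nuclear RNA, with no overlap (adjusted p = 4e-24). On polysomes it took 27.4 to 83.3% (median 60.6%, adjusted p = 2.2e-09), from 70.2 counts per library. Prpf38b used the site 6370 bases inside its end (chr3:108909175-108909226) for 9.47 to 42.1% (median 27.9%) in total and 38 to 77.3% (median 62.1%) in nuclear RNA (adjusted p = 2.8e-21). There the groups overlapped slightly, and on polysomes the share was 17.3 ± 15.6%. Snrpb2, depleted from nuclei, shifted there towards the site 313 bases inside its end (chr2:143071630-143071739), from 11.8 to 40.2% (median 25.6%) to 14.3 to 87.5% (median 59.3%, adjusted p = 1.2e-15). The sites 6705 and 3720 bases inside the Snrpb2 end fell in exchange, from 27.1% to 6.25% and from 16.4% to 6.12%.

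Hnrnpdl, the paralogue of Hnrnpd, moved the same way in both fractions. Its site 1140 bases inside the end (chr5:100034717-100034877) took 32.7 to 57.7% (median 41.5%) in total, 48.7 to 81.4% (median 70.1%) in nuclear and 30 to 100% (median 69%) in polysomal RNA. The adjusted p was 5e-25 in nuclear and 4.7e-14 in polysomal RNA, and both groups overlapped with total RNA. The sites 4040 and 3607 bases inside fell, from 17.4% to 5.06% and from 26% to 15.6% in nuclei. On polysomes they stood at 3.32% and 8.59%.

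Hnrnpu and Hnrnpk moved in opposite ways in the 2 fractions. The Hnrnpu site at the gene end (chr1:178321105-178321230) took 14.9 ± 4.17% in total, 26.7 ± 9.2% in nuclear and 2.55 ± 1.92% in polysomal RNA (adjusted p = 2.5e-11 and 2.1e-23). The site 7174 bases inside took 4 to 15.5% (median 7.14%) in total and 15.6 to 33.7% (median 23.7%) in polysomal RNA, with no overlap (adjusted p = 2.2e-29). On polysomes the end site of Hnrnpu was thus nearly unused and the inner sites took its share. Hnrnpk was the reverse: its end site (chr13:58391132-58391344) took 42.3 ± 7.7% in total, 21.7 ± 5.13% in nuclear and 54.9 ± 6.51% in polysomal RNA (adjusted p = 5.3e-24 and 1.9e-11), and the site 853 bases inside took 41.8%, 66% and 34.3%.

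Smaller exchanges marked other members on polysomes. Snrpd1 used its main site, 274 bases inside the end, for 50.7 to 88.6% (median 81.8%) in total and 0 to 90% (median 61.5%) in polysomal RNA (adjusted p = 1.4e-06), from 63.9 counts per library. Snrpd2, another Sm subunit, used the site 6 bases past its end for 8.43 to 81.8% (median 17.7%) in total and 18 to 56.6% (median 38.5%) in polysomal RNA (adjusted p = 3.2e-10). One total library at 81.8% stood far above the others there. Hnrnpab, which is enriched on polysomes, used the site 1167 bases inside for 16.6 ± 3.58% in total and 4.47 ± 2.36% in polysomal RNA (adjusted p = 2.3e-24). This Hnrnpab site was named outside the naming rule given below. Hnrnpc moved its use towards the end, from 5.17 ± 3.29% to 11.9 ± 3.36% at the site 158 bases inside (adjusted p = 5e-14). Hnrnpl and Snrpb each had a single listed site, so no exchange could be measured.

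**Figure D5:**
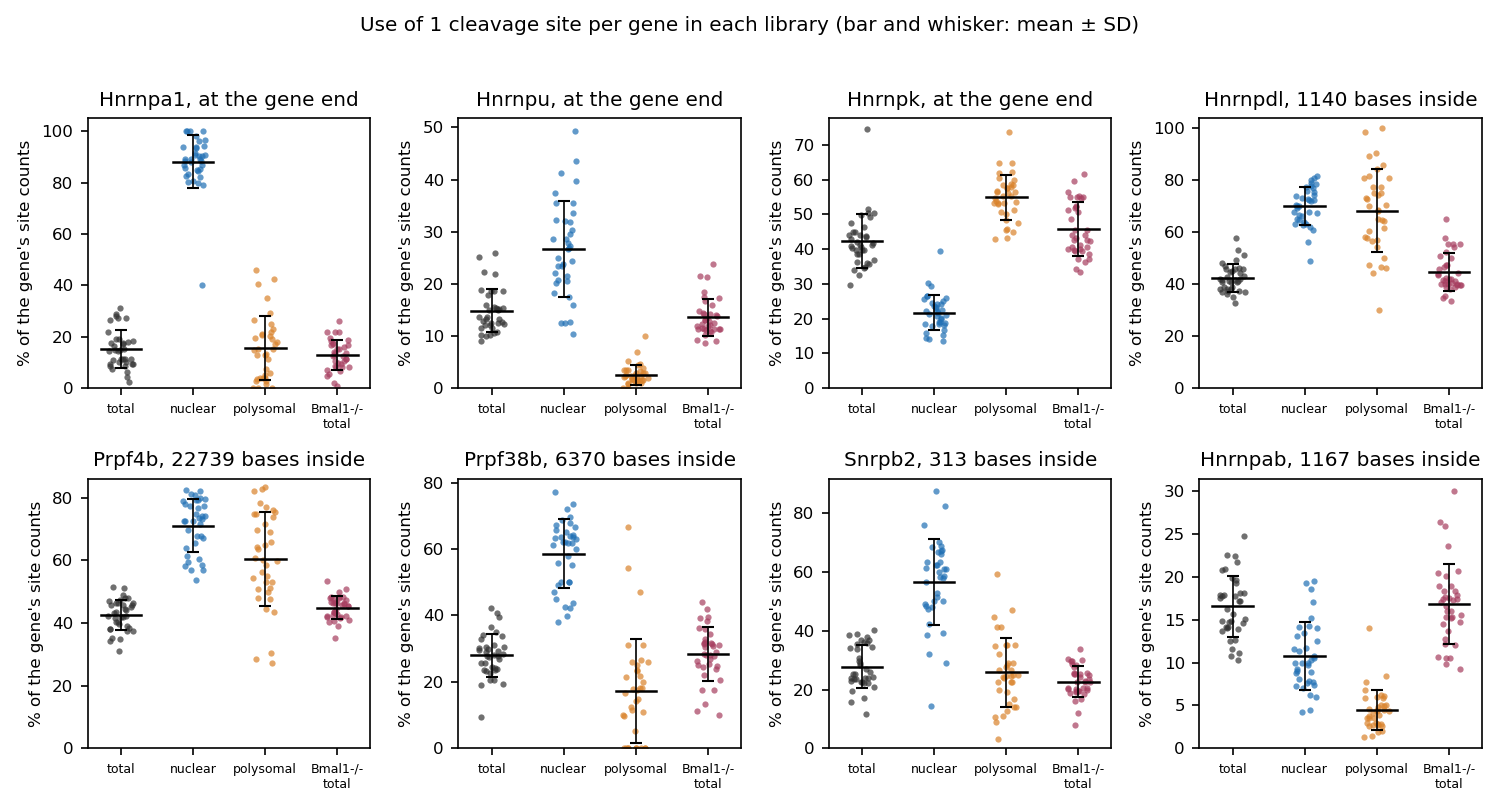
Share of the gene's site counts (y axis, percent) at 1 cleavage site of each of 8 members in every library of the 4 series (x axis), with the mean and SD. The end site of Hnrnpa1 is at 40% or more in all nuclear libraries and at 31.2% or less in all wild-type total ones; Hnrnpu and Hnrnpk end sites move in opposite ways in nuclear and polysomal RNA.

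Site use differed between genotypes at few sites and was not called over the day. Between Bmal1-/- and wild-type livers 6 of 123 sites were called, in 4 of 32 genes (8.97% of 13157 sites were called), 2 higher and 4 lower (4.84% and 4.13%). Within replicates 4 to 6 alone, 18 of 128 sites were called, 9 in each direction. Hnrnpa2b1 used the site 2316 bases inside its end (chr6:51462750-51462827) for 17.7 to 44.3% (median 28.1%) in wild-type and 12.6 to 35% (median 22.1%) in Bmal1-/- RNA, with wide overlap (adjusted p = 0.0014). The Snrpb2 site 313 bases inside the end took 27.8 ± 7.29% in wild-type and 22.7 ± 5.34% in Bmal1-/- RNA (adjusted p = 0.024), but within replicates 1 to 3 its log2 change was 0.03, in the other direction. The other calls were 2 sites each of Hnrnpul1 and Prpf18, named after their values were seen. Over the day in wild-type total RNA, edgeR called 0 of 118 sites (0.334% of 12866 sites), and 7 had an unadjusted p under 0.05.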

How the data were processed

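Livers of wild-type and Bmal1-/- mice gave 144 libraries, read at 3′ ends. The authors deposited raw read counts per gene and per cleavage site, and a filtered list of sites. Per the submitters' processing notes STAR 2.4.2a, HOMER and edgeR were used with mm10 and GRCm38.p5. Whether counting used strand is not given in the sources used here, so members that overlap other genes (Sf3b3, Prpf39, Prpf40b, Snrpa, Snrpn, Hnrnpu, Hnrnpdl, Hnrnpk, Hnrnpab, Snrpd3, Prpf4b and others) or have near-identical copies are uncertain.

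Counts were fitted here with edgeR 4.0.16 (R 4.3.3; quasi-likelihood, robust, TMM, Benjamini-Hochberg over all features, threshold 0.05), for genes that averaged 10 counts or more per library. Level contrasts averaged the 6 time points in a model of series and time. Rhythms used a cosine and sine of 24 h. Sites (29199 filtered) were assigned by position to RefSeq genes. The strand of 1866 genes with sites was inferred from the sites, a step that agreed for 92.4% of 7916 genes of known strand. Site use took sites with at least 5% of genes with at least 50 counts, offset by the gene's site total. The scripts were tested on simulated data. DESeq2 1.42.0 and other settings were alternatives. No 2 libraries of a group were identical (360 pairs). Same-numbered libraries deviated together in nuclear and total RNA (mean r = 0.34, 34 of 36 pairs over 0.1) and in part in Bmal1-/- and wild-type RNA (mean r = 0.073, 18 of 36 pairs). Polysomal libraries deviated the other way on average from same-numbered total (mean r = −0.131, 1 of 36 pairs over 0.1) and nuclear libraries (mean r = −0.117, 0 of 36). In nuclear against total RNA the same-numbered library was the closest match of its time point in 32 of 36 cases. Not every pair passed and no label ties them, so the main fits used no block and treated libraries as independent. With the block, 47 members were again called in nuclear RNA, 18 higher and 29 lower.

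The members and lists were chosen with earlier results of these data known. Named in each comparison were up to 3 members that rose and 3 that fell the most among those called in the same direction at all 6 time points with a mean of at least 50 counts, up to 8 rhythmic members, the site that differed most in up to 4 genes with at least 100 counts, the extremes of each role group in wild-type total RNA, and 18 members named in every case. Of the members so named, 1 is not reported here, and the counts of members include it.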

Additional observations from a re-analysis of the deposited data

Results flagged for a closer look

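In 4 of 54 groups of 6 libraries examined for the members called rhythmic, 1 library stood far from the other 5, where chance gives about 1 in 20 groups. Snrpa was at 5.58 CPM in wild-type total replicate 1 at ZT10, against 2.89 to 3.64 in the others, which is the time of its lowest mean. Hnrnpa0 was at 138 CPM in wild-type total replicate 4 at ZT2, against 73.6 to 88.4; that library is 1 of the 5 that stand apart, and Hnrnpa0 stayed rhythmic without it (adjusted p = 0.025). Snrpb2 was at 58.1 CPM in wild-type total replicate 1 at ZT18, against 42.9 to 47.9. Sf3b1 was at 68.5 CPM in polysomal replicate 1 at ZT22, against 33.7 to 45.5, and this library too is 1 of the 5.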

How the results depend on the processing

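Counts of members called for level stayed within 1.5 times of the main values in every alternative run: median-ratio size factors, a mean of at least 1 count, DESeq2, replicates 1 to 3 or 4 to 6 alone, the replicate block, without the 5 libraries that stand apart and listed sites only (the last 2 chosen after seeing the data). The filter at 1 count lowered the median of all genes by 0.20 (log2) in polysomal over total RNA and by 0.23 in polysomal over nuclear RNA. With replicate number as a block, which the labels do not tie to animals, 17 members were called in Bmal1-/- livers, 8 sites there, 14 rhythmic members in wild-type total RNA and 1 in nuclear RNA. DESeq2 called 10 and 1 rhythmic members. Within replicates 1 to 3 there were 1 rhythmic member in total and 0 in polysomal RNA, and within replicates 4 to 6 there were 3 and 1. Without wild-type replicate 4 at ZT2, 9 members were rhythmic. Without all 5 libraries that stand apart, 16 members were called in Bmal1-/- livers and 44 in nuclear RNA (20 higher and 24 lower). There were 45 called in polysomal over total RNA and 44 in polysomal over nuclear RNA. Sites called without them were 4 between genotypes (2 higher and 2 lower), 77 in nuclear and 82 in polysomal RNA. In site use, replicates 4 to 6 gave 18 called sites between genotypes. Genes with at least 200 counts gave 46 in nuclear and 36 in polysomal RNA, and sites with at least 10% gave 49 in polysomal RNA, where fewer sites were tested. The Snrpb2 site between genotypes turned from lower to higher (log2 0.02591) within replicates 1 to 3; the cause was not tested. Of 342 values recomputed for single genes and sites, 313 kept direction and call, 28 lost the call (25 of them rhythms) and 1 turned. No leaving out of single replicates in turn was run, as groups had 6 libraries. Depth limits low members such as Hnrnph2 and Snrpf and polysomal shares of Prpf38b, which rest on 27.2 counts per library.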

Other observations

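Among the other hnRNP-like genes, 5 of 17 were rhythmic in wild-type total RNA, 1 in nuclear and 4 in polysomal RNA, and 2 differed in rhythm between genotypes. Among other spliceosome genes, 6 of 48 were rhythmic in wild-type total RNA and 1 of 49 differed in rhythm between genotypes. Over all genes 18.9% were rhythmic in wild-type total, 5.99% in nuclear and 7.9% in polysomal RNA, and 5.11% differed in rhythm between genotypes. Hnrnph1 and Hnrnph2, close paralogues, differed in their order between fractions: Hnrnph1 was higher in nuclear (0.60 ± 0.11) and lower in polysomal RNA (−0.79 ± 0.17) than in total RNA, and Hnrnph2 was lower in nuclear RNA (−0.45 ± 0.18) and at 0.35 ± 0.18 in polysomal RNA without a call by the gene table. By listed sites Hnrnph2 was higher in polysomal RNA by 1.11 ± 0.23 (adjusted p = 1.4e-05), from 17.9 site counts per polysomal library.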
